A study of Oryctolagus cuniculus with 35 samples.

Results

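IL6 and CSF3, the transcripts of interleukin 6 and of granulocyte colony-stimulating factor, were followed across every rabbit lung library of the study. Both were picked by symbol, as the entries named IL6 (ENSOCUG00000027471) and CSF3 (ENSOCUG00000009701) in each of 4 deposited tables, and make 2 of 23669 genes. RNA-seq of whole lung was made from 35 New Zealand rabbits in 5 groups of 7, and 1 library stands for 1 rabbit. The healthy group received saline. The other 4 groups all had pneumococcal pneumonia together with injurious mechanical ventilation and were treated 4 h after inoculation with NaCl, with MSC (mesenchymal stem cells from human umbilical cord, 3000000 cells per kg into a vein), with ceftaroline (an antibiotic given into muscle as ceftaroline fosamil), or with ceftaroline and MSC together. Lung was taken at 24 h, or sooner if the rabbit died, and neither age nor the rabbits that died early are given in the sources used here. Every diseased group carries both the infection and the ventilation, so the 2 injuries cannot be told apart.

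Interleukin 6 is released early in infection by macrophages, endothelium, fibroblasts and epithelium, and acts through the receptor IL6R and the shared subunit IL6ST on the kinase JAK1 and the transcription factor STAT3, which drives acute phase genes and fever. Granulocyte colony-stimulating factor acts through CSF3R on marrow precursors and raises the output of neutrophils, the response known as emergency granulopoiesis. Both genes are switched on by interleukin 1, TNF and Toll-like receptors through NF-kB, C/EBP and AP-1 factors, and both messages are held at low levels by proteins that bind their AU-rich ends. In the RefSeq annotation of the rabbit, IL6 lies between RAPGEF5 and TOMM7, CSF3 lies between MED24 and PSMD3, and 0 annotated genes overlap either one.

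The libraries held 7567008 to 33209729 reads assigned to genes (median 11137017) and 11104 to 12017 genes with at least 1 read. SFTPB and SLC34A2, made by alveolar type II cells, were present, while SFTPC, SFTPD and ABCA3 were listed at 0 in every library. The same holds for CSF3R, the receptor of CSF3, and for 10217 genes in all, so a 0 in these tables says nothing about expression. Titles of 5 healthy libraries (4 PD and 1 PG), 3 NaCl libraries and 2 MSC libraries (all PG) carry a 2-letter ending whose meaning is not given in the sources used here. No ceftaroline or combined library carries one. The sample names of all 7 healthy libraries and of 1 diseased one, NaCl replicate 2, also carry the mark S00, so that mark and the healthy state cannot be told apart beyond this library. In the NaCl and MSC groups the titles with PG also begin with another letter, so ending and letter cannot be told apart.

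IL6 was almost silent in healthy lung. The 7 healthy libraries held 21 IL6 reads in total, with 0 to 6.37 normalized reads on a scale common to all 35 libraries and a median of 2.30. With NaCl treatment of pneumonia IL6 ran from 1820 to 45728 normalized reads, with a median of 17954 and a mean of 21857 ± 17637 (SD, n = 7). It ran from 10.4 to 12799 with MSC (median 2284), from 26.6 to 10964 with ceftaroline (median 3700), and from 6.62 to 4979 with both (median 730). All 28 diseased libraries lay above the highest healthy one, in the closest case by 6.62 against 6.37. Groups without overlap, diseased higher, made 14.7% of genes for NaCl, 5.05% for MSC, 10.5% for ceftaroline and 3.91% for the combined group against healthy lung. The NaCl and ceftaroline shares are of 9545 and 9888 genes that passed a filter on low values. Those for MSC and the combined group are of 13037 and 13108 genes without that filter, so the shares cannot be compared between groups. In whole tissue, fewer expressing cells and less RNA per cell cannot be told apart.

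CSF3 too was scarce in healthy lung, where 12 reads in total gave 0 to 4.71 normalized reads and a median of 2.55. In NaCl lungs it ran from 200 to 17021 normalized reads, with a median of 1974 and a mean of 4713 ± 6104 (SD, n = 7). It ran from 3.77 to 3392 with MSC (median 486), from 14.8 to 3327 with ceftaroline (median 1527), and from 3.08 to 2567 with both (median 464). All 7 NaCl and all 7 ceftaroline libraries lay above the highest healthy one, but 6 of 7 MSC and 5 of 7 combined libraries did.

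**Figure D1:**
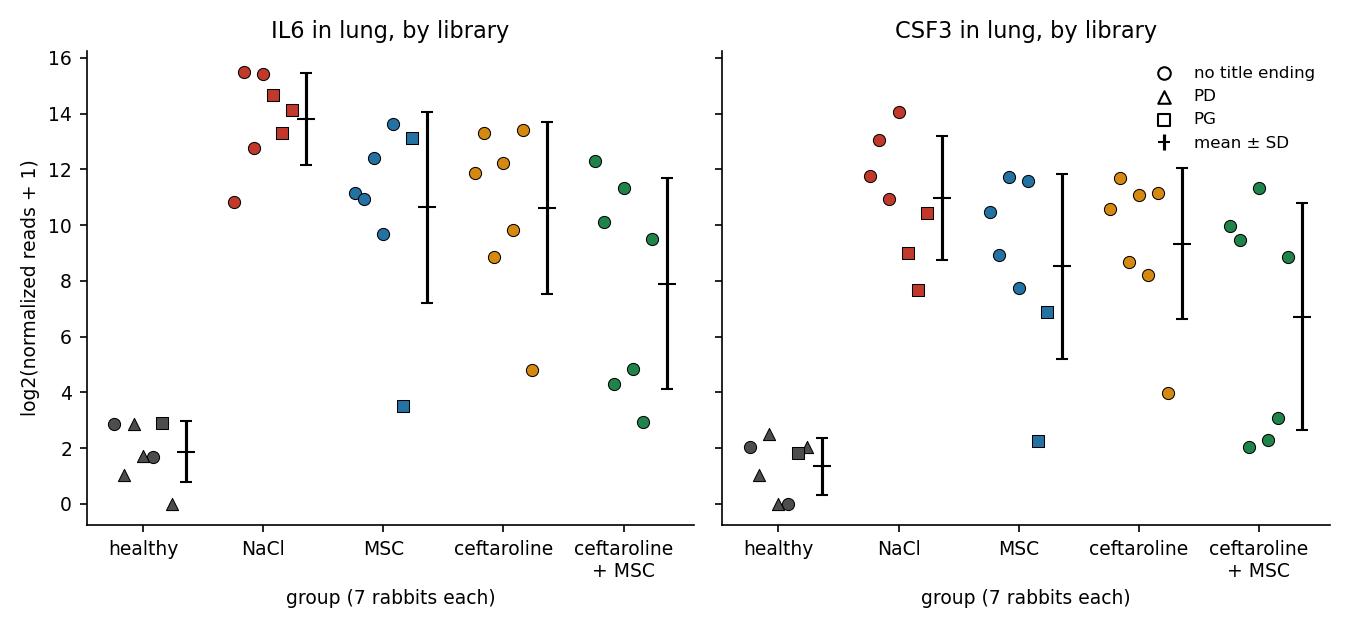
IL6 (left) and CSF3 (right) in each library, as log2(normalized reads + 1) on the scale common to 35 libraries, by group of 7 rabbits; the marker shape gives the title ending and the bar the mean ± SD. NaCl libraries stand highest, healthy libraries lie near 0, and single MSC and ceftaroline libraries and 3 combined ones fall close to the healthy range.

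Single lungs of a group differed widely. The SD of log2 IL6 was 1.66 in NaCl lungs, 3.43 with MSC, 3.08 with ceftaroline and 3.78 with both. For CSF3 the SDs of the log2 level were 2.22, 3.32, 2.70 and 4.06 in the same order. Single libraries carried part of this. Without MSC replicate 6 the SDs with MSC were 1.496 for IL6 and 2.03 for CSF3, below those of all NaCl libraries. Without ceftaroline replicate 7 those with ceftaroline were 1.86 and 1.44. The NaCl SDs dropped too, to 1.11 for IL6 without NaCl replicate 1 and to 1.83 for CSF3 without NaCl replicate 6. Leaving out any 1 combined library kept the combined SDs at 3.37 or more for IL6 and 3.83 or more for CSF3. The differences in spread were not tested.

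A gap split the diseased libraries. Of the 28 diseased libraries, the 5 with the lowest IL6 were MSC replicate 6, ceftaroline replicate 7 and combined replicates 3, 5 and 6, at 6.62 to 27.6 normalized reads. The next library held 461, which is 4.01 higher on the log2 scale. The same 5 libraries were the lowest for CSF3, at 3.08 to 14.8 normalized reads, followed after a gap of 2.89 on the log2 scale by 117. No NaCl library was among them.

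In combined lungs the values of both genes thus fell into 3 low and 4 high libraries. Combined replicates 3, 5 and 6 held 18.5, 27.6 and 6.62 normalized reads of IL6, while replicates 1, 2, 4 and 7 held 4979, 1117, 2542 and 730. CSF3 stood at 3.08, 3.86 and 7.45 in the first set and at 1008, 711, 2567 and 464 in the second.

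The first comparison asks how the lung responds to pneumonia and ventilation. IL6 rose by 11.82 on the log2(value + 1) scale in NaCl lungs (SE 0.65, adjusted p = 5e-09, limma) and CSF3 by 9.47 (SE 0.80, adjusted p = 1.6e-07, limma). All 7 NaCl lungs lay above every healthy lung for both genes. Of 9545 genes tested, 60.6% changed and 29.7% rose. IL6 had the largest rise of all genes tested and CSF3 the next. Without the NaCl library marked S00 the rises were 11.54 and 9.13. Both passed the filter on low values only through the diseased libraries, and with so few healthy reads the added 1 sets part of the fold. In the authors' deposited table the log2 fold changes were 12.67 for IL6 (adjusted p = 1.3e-79) and 11.21 for CSF3 (adjusted p = 2.59e-28).

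Both genes also stayed above healthy lung under each treatment. With ceftaroline alone IL6 rose by 8.82 over healthy lung (SE 1.10, adjusted p = 2.37e-05, limma) and CSF3 by 8.08 (SE 0.98, adjusted p = 1.94e-05), where 56.8% of genes changed. With MSC alone the rises were 8.74 for IL6 (SE 1.19, adjusted p = 0.000117, limma) and 7.12 for CSF3 (SE 1.15, adjusted p = 0.000277), where 41.3% changed. With both treatments they were 6.06 for IL6 (SE 1.33, adjusted p = 0.00468, limma) and 5.40 for CSF3 (SE 1.42, adjusted p = 0.0111), where 31% changed. In the ceftaroline fit both genes passed the filter on low values only through the ceftaroline libraries. In the MSC and combined fits at least 1 of the genes missed that filter. Those fits were run without it, on 13037 and 13108 genes. With so few healthy reads the added 1 sets part of each fold. Between combined and healthy libraries without a title ending, of which healthy has 2, IL6 stood at 5.64 (adjusted p = 0.204, limma) and CSF3 at 5.74 (adjusted p = 0.226), so neither call held there, and 0.594% of genes changed.

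Each treatment was then set against NaCl to ask how it alters the response of the injured lung. IL6 had a log2 difference of -3.14 with MSC (SE 1.29, 95% interval -5.88 to -0.40, adjusted p = 0.234, limma) and was below the NaCl mean in all 7 MSC lungs. CSF3 stood at -2.44 (SE 1.35, interval -5.32 to 0.44, adjusted p = 0.358) and was below the NaCl mean in 5 of 7. Neither difference passed the test, and 0% of the 9446 genes did by limma or by edgeR, though 1672 had an unadjusted limma p under 0.05. MSC replicate 6 weighed on both: without it IL6 stood at -1.96 and CSF3 at -1.41. In the authors' deposited table IL6 had a log2 fold change of -2.23 (adjusted p = 0.1) and CSF3 of -1.91 (adjusted p = 0.291). By that fit of the authors, 336 of 10088 genes had an adjusted p under 0.05, unlike by limma or edgeR.

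With ceftaroline alone IL6 had a log2 difference from NaCl of -3.17 (SE 1.19, interval -5.70 to -0.64, adjusted p = 0.192, limma), again with all 7 lungs below the NaCl mean. CSF3 stood at -1.62 (SE 1.19, interval -4.16 to 0.91, adjusted p = 0.493), with 4 of 7 below it. Here too 0% of 9614 genes passed by limma or edgeR, with 1760 at an unadjusted limma p under 0.05. Without ceftaroline replicate 7, IL6 stood at -2.20 and CSF3 at -0.73. In the authors' deposited table the log2 fold changes were -2.29 for IL6 (adjusted p = 0.0796) and -1.71 for CSF3 (adjusted p = 0.23). By that fit of the authors, 501 of 10674 genes had an adjusted p under 0.05. The MSC and ceftaroline comparisons share the NaCl lungs.

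Against NaCl, the combined treatment gave the one difference among diseased groups that passed. IL6 fell by 5.89 on the log2 scale (SE 1.41, interval -8.89 to -2.88, adjusted p = 0.00848, limma), in 7 of 7 lungs relative to the NaCl mean, and its fall was the largest of the 9637 genes tested. The groups still overlapped, since combined replicates 1 and 4 exceeded the lowest NaCl lung. Of all genes, 27.5% changed and 13.2% fell. CSF3 stood at -4.24 (SE 1.58, interval -7.61 to -0.87, adjusted p = 0.0583, limma), below the NaCl mean in 6 of 7 lungs. With 1 library left out in turn it failed in 10 of 14 fits, down to -3.46 without combined replicate 3 (adjusted p = 0.121). It passed in others: among libraries without a title ending it was -5.71 (adjusted p = 0.0475, with 23.2% of genes changed), and without NaCl replicate 6 it was -4.80 (adjusted p = 0.0465).

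The addition of MSC to ceftaroline, the last comparison the study names, gave a log2 difference of -2.73 for IL6 (SE 1.69, interval -6.34 to 0.89, adjusted p = 0.479, limma) and -2.65 for CSF3 (SE 1.70, interval -6.28 to 0.98, adjusted p = 0.487). In this comparison 0.0403% of 9924 genes changed. IL6 was below the ceftaroline mean in 5 of 7 combined lungs and CSF3 in 4 of 7. Without combined replicate 6 the IL6 difference was -1.89, and without ceftaroline replicate 7 it was -3.70. In the authors' deposited table IL6 stood at -1.72 (adjusted p = 0.486) and CSF3 at -1.07 (adjusted p = 0.631). By that fit of the authors, 108 of 11214 genes had an adjusted p under 0.05.

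MSC alone and ceftaroline alone were near each other in IL6, with a log2 difference of -0.02 (ceftaroline minus MSC, SE 1.57), but the interval of -3.38 to 3.33 leaves room for a large difference either way. CSF3 stood at 0.83 (SE 1.46, interval -2.29 to 3.96). Both had an adjusted p of 0.9998 by limma, and 0.0103% of genes changed. Combined lungs against MSC lungs gave -2.74 for IL6 (SE 1.75, adjusted p = 0.591, limma) and -1.80 for CSF3 (SE 1.81, adjusted p = 0.728), with 0.041% of genes changed. The IL6 value was -3.93 without MSC replicate 6 and -1.92 without combined replicate 6, and that of CSF3 was -2.85 without MSC replicate 6 and -1.02 without combined replicate 3. The effect of MSC with ceftaroline minus that without was 0.44 for IL6 (SE 2.21, interval -4.10 to 4.98, adjusted p = 0.999, limma) and -0.16 for CSF3 (SE 2.26, interval -4.80 to 4.47, adjusted p = 0.9998), with 0.00988% of genes changed.

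**Figure D2:**
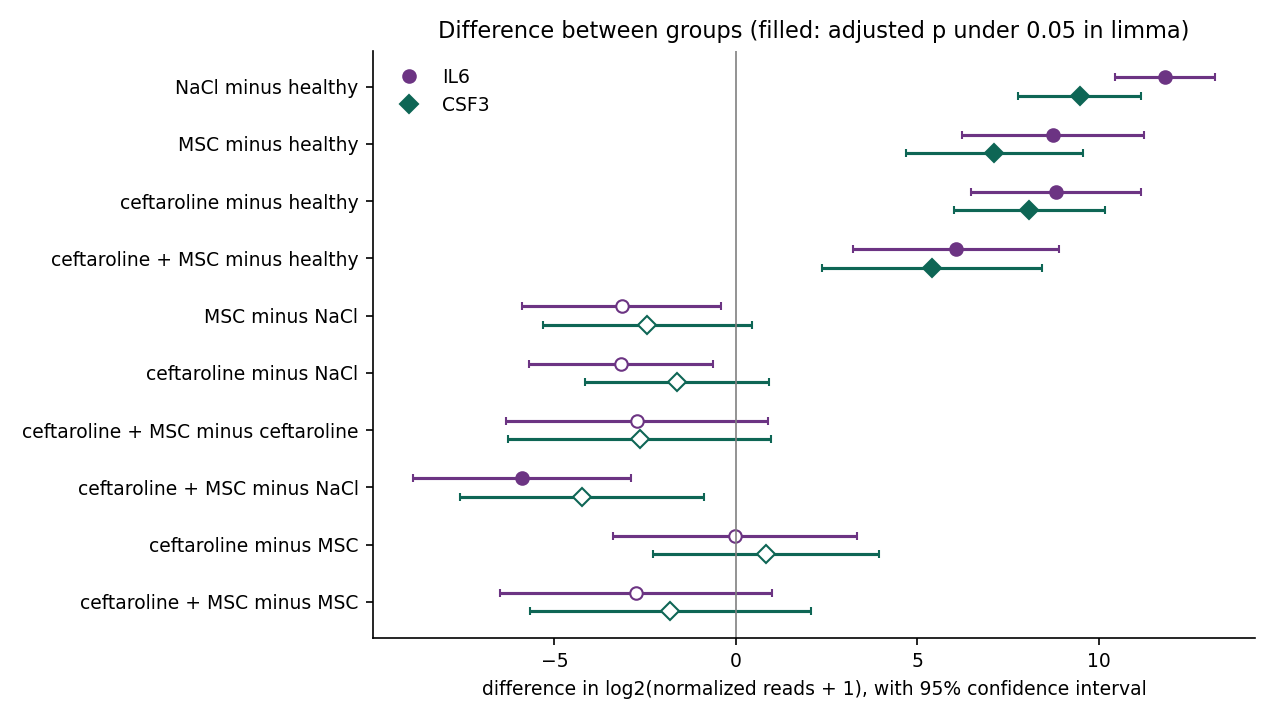
Log2 difference between groups for IL6 (circles) and CSF3 (diamonds) in 10 comparisons, with 95% confidence intervals; filled symbols passed an adjusted p of 0.05 in limma. Every comparison with healthy lung passed for both genes, and among diseased groups only the IL6 difference of -5.89 between combined and NaCl lungs did.

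In order of the mean log2 level, IL6 ran from NaCl (13.80) through MSC (10.64), ceftaroline (10.61) and the combined group (7.90) to healthy lung (1.86). Between neighbours in that order, only the step from the combined group to healthy lung passed the adjusted test, although the interval of the step from NaCl to MSC (-5.88 to -0.40) did not include 0. For CSF3 the order was NaCl (10.98), ceftaroline (9.34), MSC (8.52), combined (6.72) and healthy (1.35). Again only the step to healthy lung passed the adjusted test, and the intervals of the other steps that were fitted included 0.

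Across single lungs the 2 cytokines were compared within sets of libraries, since a correlation over all 28 would span the gap in IL6 and is not given as a test. Over the 23 diseased libraries above the gap, with group means removed, Pearson's r between log2 IL6 and log2 CSF3 was 0.47 (permutation p = 0.0388, 0.0969 after Benjamini-Hochberg adjustment over 5 sets). Spearman's rho was 0.54 (permutation p = 0.0137, adjusted 0.0684), and r was 0.56 without the 2 libraries farthest from the IL6 median. Among the 19 of these libraries without a title ending, r was 0.84 and rho 0.83. The libraries left out there have the lowest CSF3 to IL6 ratios, a pattern noticed in these values, so no p is given.

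The single groups gave less. In the 6 ceftaroline libraries above the gap r was 0.95 and rho 0.89 (exact permutation p = 0.0139 and 0.0333, adjusted 0.0694 and 0.0833), and r was 0.80 without the 2 farthest. In the 6 MSC libraries above the gap r was 0.35 and rho 0.31 (exact p = 0.483 and 0.564), and r turned to -0.34 without the 2 farthest, so that relation rests on them. In the 7 NaCl libraries r was 0.27 and rho 0.36 (exact p = 0.567 and 0.444), and r was 0.89 in the 5 left without the farthest pair. In healthy lung, at 0 to 6 reads per library, r was 0.26 and rho 0.34 (exact p = 0.579 and 0.456), with r at 0.74 without the 2 farthest. Combined lungs had too few libraries on either side of the gap for a test.

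**Figure D3:**
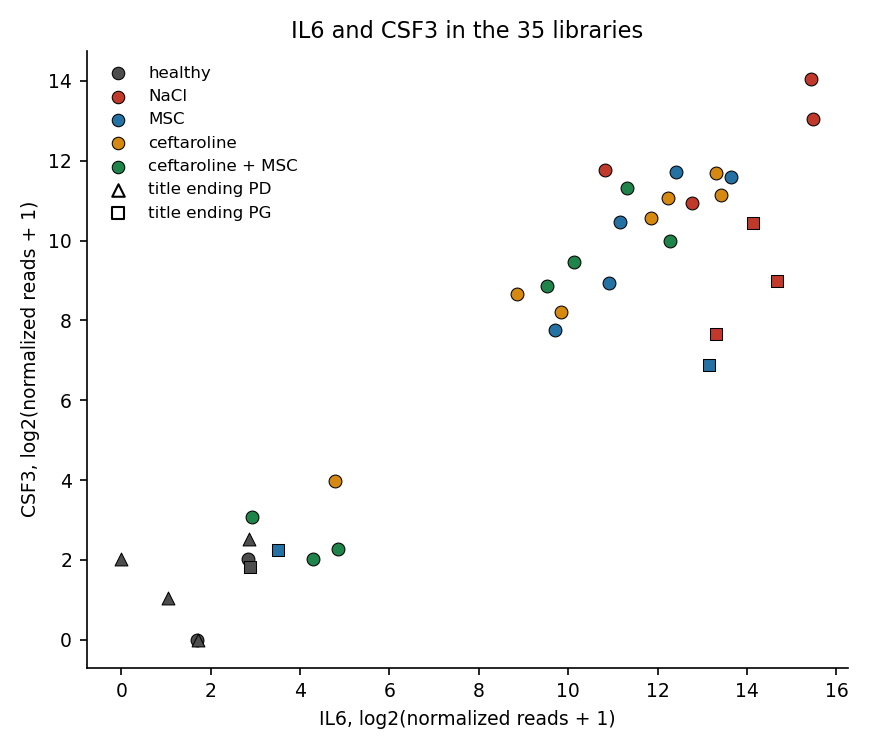
CSF3 against IL6 in the 35 libraries, both as log2(normalized reads + 1), coloured by group with title endings as marker shapes. The 5 low diseased libraries lie beside the healthy ones, and the 4 PG libraries with high IL6 had log2 CSF3 to IL6 ratios of -6.26 to -3.70.

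CSF3 relative to IL6 differed by title ending, a pattern noticed in these values and therefore described without a test of its own. In NaCl lungs the log2 ratio of CSF3 to IL6 ran from -5.69 to -3.70 in the 3 PG libraries and from -2.44 to 0.93 in the other 4, with no overlap. NaCl replicates 5 to 7, which carry the ending, held 26174, 10147 and 17954 normalized reads of IL6 but 507, 200 and 1381 of CSF3. Replicates 1 to 4 held 1820, 45728, 6929 and 44248 of IL6 and 3472, 8436, 1974 and 17021 of CSF3. In MSC lungs the PG libraries had ratios of -1.25 and -6.26, and the other 5 ran from -2.05 to -0.69. One of the 2 MSC libraries with PG thus lay inside the range of the others. The mean difference over both groups was -3.13.

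A fit over all genes, with treatment as a term, was made after that pattern was seen. CSF3 was lower in PG than in other NaCl and MSC libraries by a log2 difference of -4.38, while IL6 stood at -1.26. The contrast was picked from these CSF3 values, which other genes follow across the same lungs, so no p is given for any gene. Counts of genes by ending use an adjusted limma p under 0.05 and only describe. Across all 9446 genes, 28.3% differed by ending and 14.3% were lower with PG. Without MSC replicate 6 CSF3 stood at -3.38 and IL6 at 0.77. IL17F, an interleukin 17 cytokine known to induce CSF3 in epithelium and fibroblasts, had the lowest difference of all genes by ending, -7.08. It ran from 2.93 to 5.88 normalized reads in the 3 NaCl libraries with PG and from 150.1 to 1192 in the other 4. In MSC lungs it ran from 0 to 1.89 in the 2 libraries with PG and from 155 to 758 in the other 5. The inducers that lie upstream of both genes were lower with PG in 9 of 15 tested and higher in 1. TNF stood at -3.23, IL1A at -3.04 and IL1B at -2.52. The part of the inducers in the CSF3 difference was not tested.

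Other growth factors of white cells differed with the ending too. CSF1, which supports macrophages, stood at -2.72 and CSF2, which supports granulocytes and macrophages, at -1.70. KITLG, the ligand of KIT on early progenitors, was higher by 2.89. Of 12 genes listed as transcription factors or their regulators 4 were lower, and FOSL1, EGR1 and NFKBIZ did not pass (0.44, 0.54 and -0.35). Smooth muscle markers were higher with PG in 5 of 5 tested (ACTA2 by 2.73) and those of alveolar type I cells in 4 of 5. Neutrophil markers were lower in 4 of 7 and macrophage markers in 5 of 11. Of all genes, 14% were higher and 14.3% lower with PG. The part of these cells in the CSF3 difference was not tested.

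**Figure D4:**
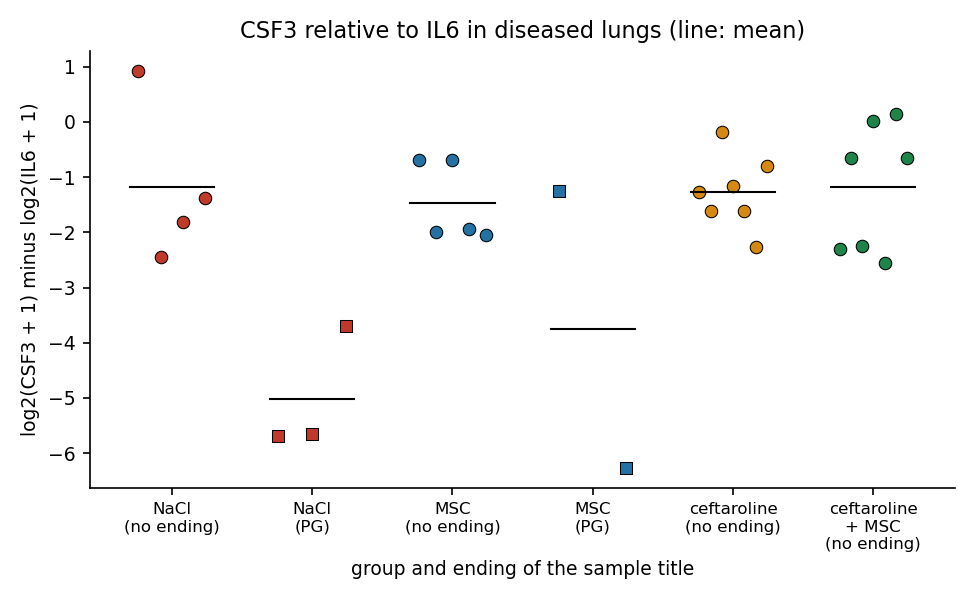
Log2 ratio of CSF3 to IL6 in each diseased library, by group and title ending, with a line at the mean. The 3 NaCl libraries with PG lie between -5.69 and -3.70, below every library without an ending, and 1 of the 2 MSC libraries with PG lies at -6.26.

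The genes around the 2 cytokines were described from 8 lists of their inducers, regulators, receptors and responses. The comparisons of NaCl with healthy lungs and of combined with NaCl lungs share the NaCl lungs. A rise in the first and a fall in the second are therefore not independent. Of 14 inducers and their signal proteins that could be tested, 11 rose in NaCl lungs against healthy and 0 fell, where 29.7% of all genes rose and 30.9% fell. Their median log2 difference was 1.15 against 0.00 over all genes. IL1A and IL1B, the interleukin 1 cytokines, rose by 6.20 and 4.94 (adjusted p = 2.98e-07 and 3.9e-06, limma), TNF by 4.34 (adjusted p = 9.16e-05) and IL1RAP, a subunit of the interleukin 1 receptor, by 3.96 (adjusted p = 1.54e-07). IL17RA, which receives the interleukin 17 signal, rose by 1.36 (adjusted p = 0.00104). TLR4, MYD88 and IKBKB were among 8 of the 25 listed that stood at 0 in every library.

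The list of transcription factors also holds regulators of them, such as NFKBIA, an inhibitor of NF-kB. All 12 of its tested members rose in NaCl lungs (median 3.19), where 29.7% of all genes rose. FOSL1, an AP-1 subunit, rose by 7.86 (adjusted p = 7.86e-09, limma), NFKBIZ, the NF-kB cofactor needed for IL6 transcription, by 4.31 (adjusted p = 3.04e-08) and EGR1, an early growth response factor, by 4.01 (adjusted p = 1.92e-05). FOSL1 averaged 1.61 normalized reads in healthy lungs and passed the filter on low values only through the NaCl libraries. The added 1 thus sets part of its fold. Against NaCl, 9 of the 12 fell in combined lungs and 0 rose (median -1.78 against 0.01 over all genes), where 13.2% of all genes fell. FOSL1 fell by 3.68 (adjusted p = 0.00128, limma), EGR1 fell by 2.81 (adjusted p = 0.00292) and NFKBIZ fell by 2.03 (adjusted p = 0.00655). Among inducers 3 of 15 fell and 1 rose, a share near the 27.5% of all genes that changed. IL1B fell by 2.70 (adjusted p = 0.0418), while IL1A stood at -2.16 (adjusted p = 0.09) and TNF at -1.02 (adjusted p = 0.525).

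Of 10 tested genes listed for the decay of such messages or its control, 7 rose in NaCl lungs, where 29.7% of all genes rose and 60.6% changed in either direction. In combined against NaCl lungs 3 fell, where 13.2% of all genes fell and 27.5% changed in either direction. Both counts are near these shares of all genes that changed. Of the 3 that fell, TNFAIP3 and DUSP1 act on signals rather than on the message itself. ARID5A, which protects IL6 mRNA from decay, rose by 2.00 in the first comparison (adjusted p = 1.77e-07, limma) and fell by 1.29 in the second (adjusted p = 0.0152). TNFAIP3, a brake on NF-kB, rose by 4.11 (adjusted p = 2.42e-07) and fell by 2.70 (adjusted p = 0.0114). DUSP1, a phosphatase that turns off p38 kinase, rose by 2.47 (adjusted p = 2.03e-07) and fell by 1.93 (adjusted p = 0.00165). ZC3H12A, which cuts IL6 mRNA, was listed at 0 throughout.

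On the receiving side, 9 of 10 tested genes of the IL-6 receptor and its signal rose in NaCl lungs and 1 fell, where 29.7% of all genes rose and 30.9% fell. IL6R rose by 1.60 (adjusted p = 6.9e-05, limma), IL6ST by 1.09 (adjusted p = 0.000323), JAK1 by 0.84 (adjusted p = 6.42e-05), STAT3 by 2.14 (adjusted p = 3.19e-07) and SOCS1, an inhibitor of the kinases, by 2.64 (adjusted p = 0.00185). PIAS3, an inhibitor of STAT3, fell by 0.49 (adjusted p = 0.0354). In combined against NaCl lungs IL6ST fell by 0.87 (adjusted p = 0.0149), JAK1 fell by 0.64 (adjusted p = 0.00981) and STAT3 fell by 1.22 (adjusted p = 0.00636), and the other 7 did not pass, where 27.5% of all genes changed and 13.2% fell. SOCS3 is not under that symbol in the tables.

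Among 13 genes driven by STAT3 in the acute response, 11 rose and 1 fell in NaCl lungs (median 2.23), and 7 fell in combined against NaCl lungs (29.7% of all genes rose in the first comparison and 13.2% fell in the second). HP, which binds free haemoglobin, rose by 5.46 (adjusted p = 3.65e-07, limma) and TIMP1, an inhibitor of metalloproteases, by 5.23 (adjusted p = 7.86e-09), whereas FGG, a fibrinogen chain, fell by 2.15 (adjusted p = 8.15e-07). TIMP1 fell by 2.08 with the combined treatment (adjusted p = 0.012), and HP stood at -2.64 (adjusted p = 0.0692). Of 4 tested genes of the wider interleukin 6 family, OSMR, CNTFR and IL31RA rose (1.89, 1.85 and 4.48) and the same 3 fell with the combined treatment (-0.98, -2.06 and -2.20). IL31RA averaged 0.63 normalized reads in healthy lungs and passed the filter on low values there only through the NaCl libraries. The added 1 sets part of its rise.

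Of 11 genes of the CSF3 signal and granulopoiesis, 7 rose in NaCl lungs and 2, STAT3 and CEBPE, fell in combined against NaCl lungs. Of all genes 29.7% rose in the first comparison and 13.2% fell in the second. The share called in either direction was near the 60.6% of all genes that changed in the first. CEBPE, a factor of late granulocyte maturation, rose by 3.52 (adjusted p = 7.62e-05, limma) and fell by 1.48 (adjusted p = 0.0484). LYN, a kinase bound to the CSF3 receptor, rose by 1.40 (adjusted p = 5.28e-05). Of 6 colony-stimulating factors and receptors apart from CSF3, CSF1 rose by 3.08 (adjusted p = 0.000622) and CSF1R by 1.14 (adjusted p = 0.0182), while CSF2 stood at -0.73 (adjusted p = 0.236). In MSC against NaCl, ceftaroline against NaCl and combined against ceftaroline lungs, 0 genes of the 8 lists passed by limma or edgeR, and 18 of 75, 15 of 75 and 7 of 77 had an unadjusted limma p under 0.05.

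**Figure D5:**
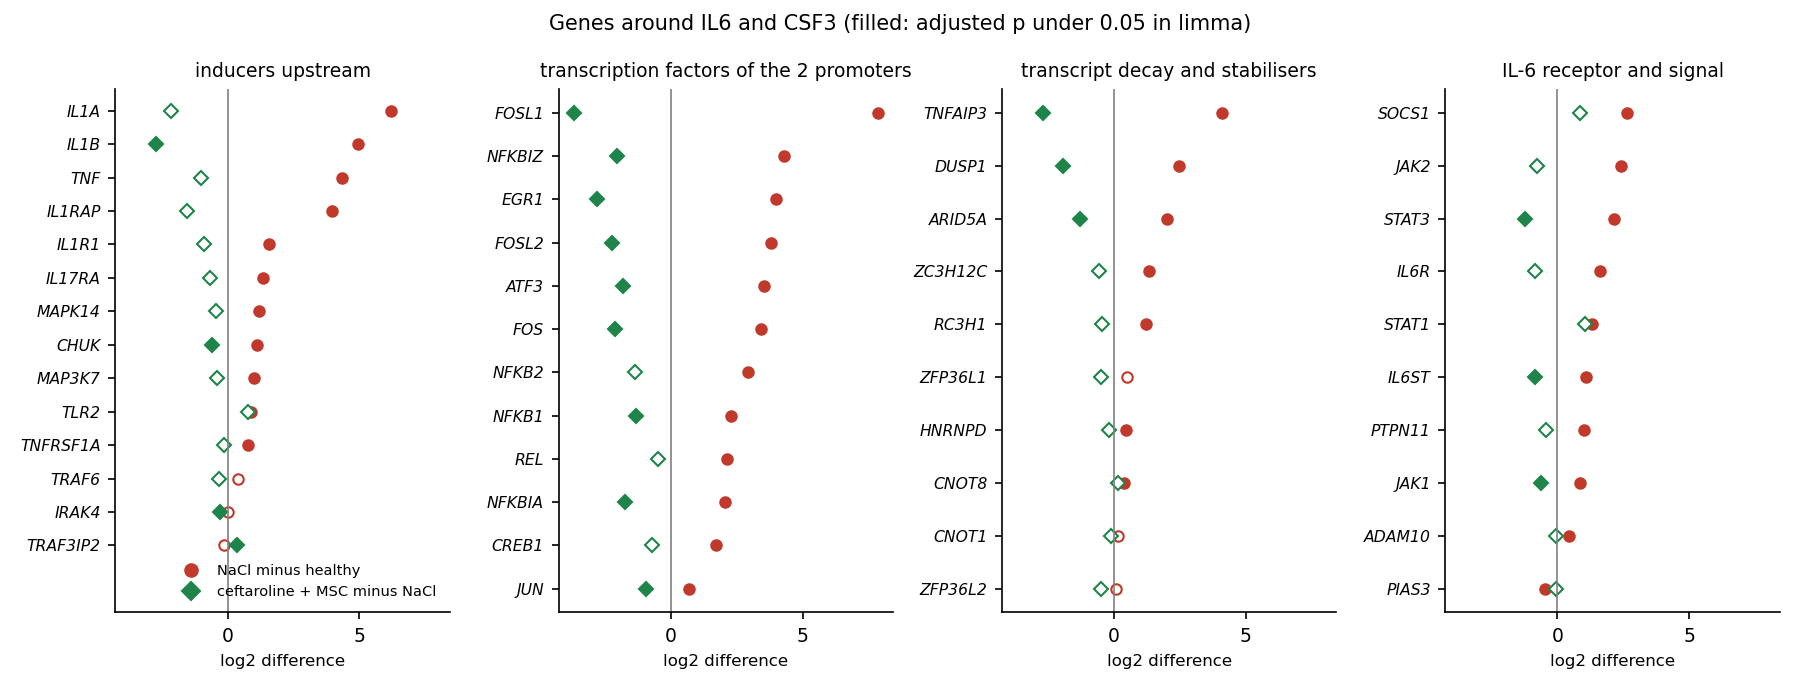
Log2 difference of genes in 4 lists around IL6 and CSF3, for NaCl minus healthy (circles) and ceftaroline plus MSC minus NaCl (diamonds); filled symbols passed an adjusted p of 0.05 in limma. All 12 genes listed as transcription factors or their regulators rose with disease, and 9 of them fell with the combined treatment. Most inducers and receptor genes did not pass in that second comparison.

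Markers of neutrophils moved in the same comparisons. In NaCl against healthy lungs 7 of 7 tested neutrophil markers rose (median 4.41), and in combined against NaCl lungs 6 of 7 fell (median -2.83). Of all genes 29.7% rose in the first comparison and 13.2% fell in the second. The summed level of the 9 markers detected of 18 ran from 17243 to 119840 normalized reads in healthy lungs, 181290 to 1661000 with NaCl, 35338 to 756250 with MSC, 57402 to 1681600 with ceftaroline and 19679 to 560180 with both. CSF3R, MMP9 and FPR1 were among 6 defining markers listed at 0. Fibroblast markers moved the other way, with 7 of 9 lower in NaCl than in healthy lungs and 5 of 9 higher in combined than in NaCl lungs, where 30.9% of all genes fell and 14.3% rose. Of 11 macrophage markers 6 rose and 1 fell with disease, and CD14, a receptor for bacterial products, rose by 2.68 and fell by 1.31 with the combined treatment (adjusted p = 6.02e-06 and 0.0386, limma). Of 10 endothelial markers 3 rose and 5 fell with disease. The 5 were EMCN (-2.61), TEK (-2.19), KDR (-1.45), TIE1 (-1.27) and VWF (-0.96). SELP, the adhesion molecule P-selectin, rose by 5.18 and fell by 2.46 with the combined treatment (adjusted p = 4.72e-09 and 0.00707, limma). CD14 and SELP are single members and do not stand for their lists in either comparison. All 3 tested markers of alveolar type II cells fell with disease, SLC34A2 by a log2 difference of -3.83 (adjusted p = 4.7e-06), and 0 of 3 passed in combined against NaCl lungs. The part of these cell types in the IL6 and CSF3 differences was not tested.

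The genes whose pattern over single lungs was most like that of IL6 were picked from 6554 genes by Spearman's rho over the 28 diseased libraries with group means removed. For the 8 picked, this rho ran from 0.91 to 0.94 and spans the gap, so the value over the 23 libraries above the gap is given for each. It was 0.91 for PTGS2, the inducible cyclooxygenase, 0.91 for CSRNP1, 0.89 for NFKBIZ, 0.80 for PLK3, 0.77 for MAP3K8, 0.82 for ETF1, 0.76 for ADAMTS4 and 0.82 for NABP1. All points share depth and tissue makeup, so these values only describe.

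The 8 genes picked for CSF3 in the same way, with rho from 0.89 to 0.96 over the 28 libraries, were others. Over the 23 libraries above the gap rho was 0.90 for RGS4, a regulator of G protein signals, 0.76 for BIRC3, 0.76 for STEAP4 and 0.77 for the interleukin 23 subunit gene IL23A. It was 0.87 for the collagenase gene MMP1, 0.80 for SLC6A12, 0.73 for IL36A and 0.88 for the chemokine gene CCL4. The 2 sets of 8 shared 0 genes. Over the 28 libraries, which span the gap, CSF3 had rank 62 in likeness to IL6 and IL6 had rank 44 in likeness to CSF3 (rho 0.84). Above the gap CSF3 had rank 402 in likeness to IL6, and IL6 had rank 350 in likeness to CSF3.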

How the data were processed

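Lung RNA of 35 rabbits was sequenced as stranded mRNA libraries (75 bp single reads). Per the labels' protocols and the submitters' processing notes, Cutadapt 1.15 removed adapters, and the tools named are TopHat2 2.1.1, featureCounts 1.5.2 and DESeq2 1.24.0. Neither genome build nor strand setting is given in the sources used here. Deposited by the authors were 4 tables of 14 libraries with a signal per gene (reads divided by a size factor), log2 fold changes, standard errors, test statistics (a score) and p-values, per the file headers. Whole reads were recovered from each library's smallest step (100% of values whole within 1e-06), and 21 of 21 repeated library columns gave identical reads.

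Groups were compared in pairs with limma 3.58.1 (R 4.3.3) with an intensity trend on log2(value + 1), two-sided, with Benjamini-Hochberg adjustment over all genes that reached a value of 10 in 7 or more libraries. Pairs without a table used recovered reads over median-of-ratios size factors. Healthy against MSC and against the combined group were tested without the filter, because at least 1 gene of interest missed it. Levels are given on size factors of all 35 libraries. The p-values measure the spread between rabbits. Alternatives were pseudocounts of 0.5 and 10, no filter, library totals, edgeR 4.0.16, DESeq2 1.42.0, 1 fit of all libraries, the title ending left out or as a covariate, a replicate block, and each library left out. Permutation tests used scipy 1.17.1. The correlation planned over 28 libraries was replaced by sets above the gap after the values were seen.

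IL6, CSF3 and the gene lists were chosen with earlier results of these data known. Genes named were IL6 and CSF3, list members needed for their role, and for each of the 2 the 8 named genes averaging 50 or more normalized reads whose pattern was most like it. Tests were checked on simulated data.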

Additional observations from a re-analysis of the deposited data

Results flagged for a closer look

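IL6 in MSC replicate 6 had a log2 level of 3.51, far below the other 6 MSC libraries: the gap to the nearest one was 0.611 of the whole range of the group, over the limit of 0.568 for 7 samples. The log2 ratio of CSF3 to IL6 in MSC replicate 7 was -6.26, also far below the rest, with a gap of 0.756 of the range. Of 15 groups looked at in this way 2 stood out, and chance alone singles out about 1 in 20. Both libraries carry the PG ending.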

How the results depend on the processing

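Against healthy lung, IL6 and CSF3 kept direction and call under all alternatives run for the NaCl, MSC and ceftaroline groups. For the combined group both missed the threshold without libraries with a title ending (5.64 and 5.74, adjusted p = 0.204 and 0.226, limma) and with the ending as a covariate (5.64 and 5.74, adjusted p = 0.113 and 0.126). The cause was not tested. CSF3 in combined against NaCl lungs passed in 1 fit of all libraries (-4.26, adjusted p = 0.0252), without the ending (-5.71, 0.0475) and with it as a covariate (-5.71, 0.0296), and ran from -5.01 to -3.46 when each library was left out, passing in 4 of 14. IL6 there ran from -6.62 to -5.06 and passed in 14 of 14.

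Differences that were not called turned sign in places. CSF3 in ceftaroline minus MSC lungs was -0.75 without the ending and -0.75 with the covariate. The MSC effect with minus without ceftaroline was -0.66 for IL6 without the ending, and for CSF3 0.11 with a pseudocount of 10 and 0.85 by edgeR. With each library left out, ceftaroline minus MSC ran from -1.21 to 0.95 for IL6 and from -0.21 to 1.73 for CSF3, the MSC effect from -0.75 to 1.27 and from -1.21 to 0.62, and the PG difference in IL6 from -2.36 to 0.77. The PG difference in CSF3 ran from -4.86 to -3.38. The ratio of CSF3 to IL6 by ending ran from -4.15 to -2.51.

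The correlation of IL6 and CSF3 above the gap was 0.41 (permutation p = 0.0736) over 23 libraries scaled by library totals. Without the 2 farthest libraries it was 0.80 in ceftaroline (exact p = 0.167) and -0.34 in MSC lungs (exact p = 0.625). With a replicate block for ceftaroline against combined lungs IL6 stood at -2.73 and CSF3 at -2.65 (adjusted p = 0.423 and 0.419, limma), and 0 genes passed against 4 without it. The titles share only a number: same-numbered libraries deviated together in 4 of 7 pairs, and 2 of 7 were best matched by their own number. With 0 to 6 reads per healthy library, depth limits how low the healthy level can be placed.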
